A study of Homo sapiens with 16 samples.

Results

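BHLHE40 and 9 genes of the circadian clock were followed across RNA-seq count files of NCI-H929, a human myeloma cell line. The 10 genes were found by matching the Ensembl identifiers of the files to gene symbols, and all 10 were present among the 57500 genes of each file. They were BHLHE40, BHLHE41, NR1D1, NR1D2, PER1, PER2, PER3, CRY1, CRY2 and CLOCK. BHLHE40 was chosen by its measured level in these same libraries, which was lower after degrader treatment, and the other 9 were added for their known clock roles. The values of the 10 genes in the degrader comparison are therefore given as a description, without a p-value. Tests are given for the p300 KO comparison. All 10 genes and the lists used below were set with earlier results of these data known. Their p-values are therefore not of genes picked blind to these data.

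The 16 libraries formed 4 groups of 4. Cells given p300 degrader 27 for 6 h, at a dose of 3 nM, were compared with cells given DMSO as vehicle. In a separate arm, p300 KO cells were compared with NTC cells. p300, encoded by EP300, is a histone acetyltransferase and transcriptional coactivator. The labels put all libraries in batch 1 and name 1 cell line. The sources used here do not give how the knockout was made, whether it was 1 clone or a pool, or the time between knockout and harvest. They also do not say whether replicates were separate cultures, so p-values measure the spread between these libraries, which may be technical.

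The clock is a feedback loop of transcription. CLOCK and BMAL1 form a heterodimer that binds E-box sequences and activates the PER, CRY, NR1D and BHLHE40 and BHLHE41 genes. PER and CRY proteins then inhibit that heterodimer, NR1D1 and NR1D2 repress the BMAL1 gene, and BHLHE40 and BHLHE41 repress from E-boxes. In mouse, p300 is known as a coactivator of CLOCK and BMAL1 at clock promoters. The labels give no time course in either arm, so no rhythm was measured.

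Total counts were between 12590308 and 23120350 per library, and 2 libraries stood apart. Mitochondrial genes took 64.9% of the counts in degrader 2 and 47.7% in p300 KO 1. In the others they took 5.99% to 6.96% in the degrader group, 13.4% to 23.5% in DMSO, 10.2% to 11.4% in p300 KO and 8.91% to 10.3% in NTC. Results are given with all libraries and again without degrader 2 or p300 KO 1. EP300 averaged 35.7 ± 3.18 CPM (counts scaled to library size) in p300 KO and 88.7 ± 3.43 CPM in NTC (SD, n = 4 each). EP300 fell by 1.25 ± 0.11 on the log2 scale in p300 KO (SE; edgeR adjusted p = 2.2e-04). In the other experiment EP300 RNA averaged 74.8 ± 38.7 CPM with the degrader and 45.4 ± 4.56 CPM with DMSO (SD, n = 4 each). There its log2 fold change was 0.79 ± 0.35 (edgeR adjusted p = 0.249), and 0.24 ± 0.09 without degrader 2 (edgeR adjusted p = 0.0531). All 8 plasma cell markers, among them SDC1, TNFRSF17 and IRF4, were detected in every group. Levels below are CPM scaled over the 16 libraries by TMM, a normalization that corrects for differences in RNA composition, and log2 fold changes with standard errors come from edgeR fits of the 8 libraries of an experiment. A gene was called when its Benjamini-Hochberg adjusted p over all genes tested was under 0.05. In whole-culture RNA, fewer expressing cells and less RNA per cell cannot be told apart.

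The promoter sequences are shown first because the E-box CACGTG is the element through which CLOCK with BMAL1, and also BHLHE40 and BHLHE41, act on this loop. Promoter windows were 250 bases upstream and 50 bases downstream of each start site in RefSeq, on build GRCh38.p14, and all 10 genes matched, with 14 windows. CACGTG, its own reverse complement, was found in the windows of 4 of the 10 genes, and in those of 8.77% of the 27305 genes in that table. Those sites are shown 5' to 3' on the gene's strand, with the E-box in capitals and up to 12 bases on each side.
BHLHE40: tccaaCACGTGagactcatgtga
BHLHE41: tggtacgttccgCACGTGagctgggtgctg
NR1D2: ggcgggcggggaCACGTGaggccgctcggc
NR1D2: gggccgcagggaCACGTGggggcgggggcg
PER1: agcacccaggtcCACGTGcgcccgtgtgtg
The BHLHE40 site lay at chr3:4979187-4979209 on the plus strand, 245 bases upstream of the RefSeq start, at the edge of the window. The BHLHE41 site lay at chr12:26125068-26125097 on the minus strand, 48 bases upstream. The 2 NR1D2 sites lay at chr3:23945954-23945983 and chr3:23946004-23946033 on the plus strand, 155 and 105 bases upstream of the later of the 2 start sites. The PER1 site lay at chr17:8152560-8152589 on the minus strand, 173 bases upstream. The BHLHE40 and BHLHE41 sites fell wholly inside exons of these genes as counted in the files, whose gene models start farther upstream.

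A related sequence, CACGTT or its reverse complement AACGTG, was searched after the first motif had been seen. It was found in the windows of 5 of the 10 genes and in those of 6.44% of all genes in the table, in these sites, again with the motif in capitals.
NR1D1: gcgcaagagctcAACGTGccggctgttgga
PER2: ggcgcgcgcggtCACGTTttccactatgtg
CRY1: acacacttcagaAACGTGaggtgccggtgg
CRY2: acacatggtaggAACGTGagggggcgggcc
CLOCK: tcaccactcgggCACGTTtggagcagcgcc
These sites lay at chr17:40100740-40100769 on the minus strand for NR1D1, 168 bases upstream, at chr2:238288790-238288819 on the minus strand for PER2, 197 bases upstream, and at chr12:107093621-107093650 on the minus strand for CRY1, 89 bases upstream. The CRY2 site lay at chr11:45847275-45847304 on the plus strand, 188 bases upstream, and the CLOCK site at chr4:55546102-55546131 on the minus strand, 187 bases upstream. The 2 motifs share 5 of their 6 letters but cannot match at the same position. The CRY1 site, too, fell inside an exon of the gene as counted. The PER3 windows held neither motif. In the list of other clock genes described below, 16 had windows, with CACGTG in 3 of them and CACGTT or AACGTG in 1. A match gives the letters only, and binding was not measured in these data.

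Degrader treatment went with a far lower level of BHLHE40, and with lower levels, by a smaller margin, of several other repressors of the loop. BHLHE40, BHLHE41, NR1D1, NR1D2 and PER1 were lower in every degrader library than in every DMSO library. This was so for 9.92% of all genes tested. CRY1 was higher than in every DMSO library in the 3 degrader libraries with low mitochondrial counts. The share of all genes whose groups separate without degrader 2 or p300 KO 1 was not computed. Such splits, here and below for CRY1, CRY2, PER2 and CLOCK, are therefore descriptions only. Of the 10 genes, 3 met the call rule, namely BHLHE40, NR1D1 and PER1, all lower, where 4.76% of the 15872 genes tested were called and 3.12% were called lower. Without degrader 2, 8 of the 10 met it, 7 lower and 1 higher, where 38.5% of 16297 genes were called, 20.3% lower and 18.2% higher. The choice of BHLHE40 used this comparison, so nothing is read from these counts.

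BHLHE40 encodes a basic helix-loop-helix repressor, also called DEC1, that responds to light, hypoxia and cytokines in several tissues. Its gene lies at chr3:4979116-4985323 on the plus strand. It had 6.47, 8.63, 7.10 and 5.96 CPM in degrader 1 to 4, against 45.4, 51.3, 47.6 and 45.7 CPM in DMSO 1 to 4. On the TMM scale the highest degrader library, degrader 2, stayed far below the lowest DMSO library. The means were 7.04 ± 1.16 CPM with the degrader and 47.5 ± 2.68 CPM with DMSO (SD, n = 4 each). On the log2 scale the difference was -2.75 ± 0.17 (SE), which is 6.73-fold lower. Without degrader 2 the log2 fold change was -2.92 ± 0.10, or 7.56-fold lower. In the 16 other settings tried, the log2 fold change of BHLHE40 was -2.95 to -2.65 and it met the call rule in each. These settings reuse the libraries by which BHLHE40 was chosen, so they describe the processing and are no support for the difference.

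**Figure D1:**
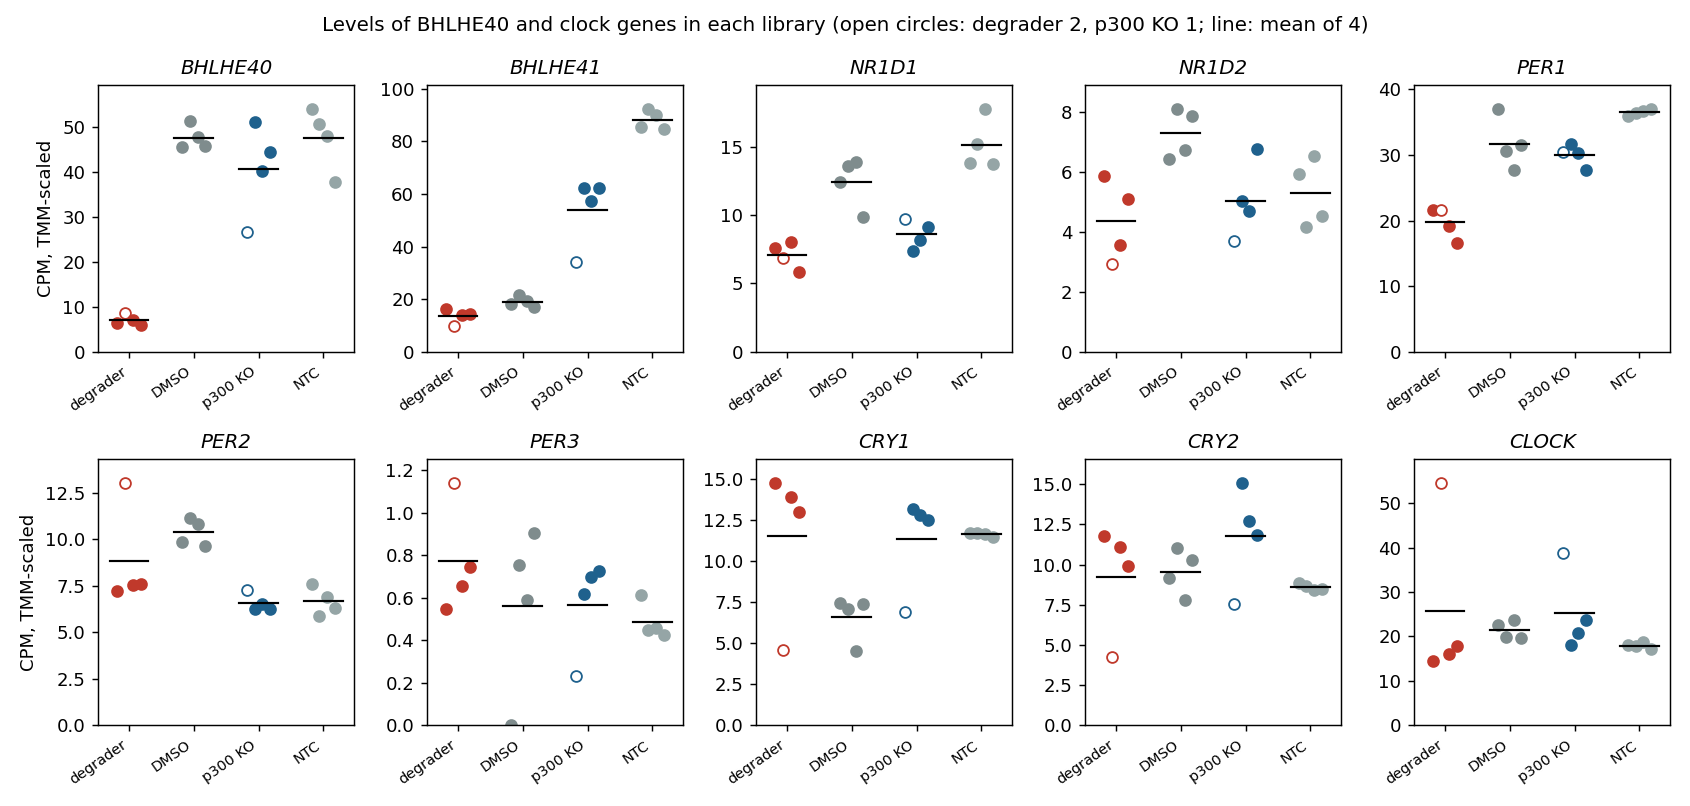
TMM-scaled CPM (y axis) of the 10 genes in each library of the degrader, DMSO, p300 KO and NTC groups (x axis). Each circle is 1 library, open circles are degrader 2 and p300 KO 1, and lines are means of 4. The 4 degrader libraries lie between 5.96 and 8.63 CPM for BHLHE40, below all 12 others, and degrader 2 stands at 54.5 CPM for CLOCK.

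BHLHE41 encodes the close relative DEC2, which binds the same E-boxes and is linked to sleep length in human families. The gene lies at chr12:26120026-26125127 on the minus strand. It had 16.1, 9.93, 14 and 14.2 CPM in degrader 1 to 4, against 18.1, 21.7, 19.4 and 16.9 CPM in DMSO 1 to 4. The groups did not overlap, although degrader 1 and DMSO 4 were close. On the log2 scale BHLHE41 differed by -0.47 ± 0.13, and by -0.42 ± 0.11 without degrader 2. The difference of BHLHE41 was thus much smaller in size than that of BHLHE40.

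NR1D1 and NR1D2 encode REV-ERBα and REV-ERBβ, heme-binding nuclear receptors that repress BMAL1. NR1D1 lies at chr17:40092787-40100725 on the minus strand and NR1D2 at chr3:23945260-23980618 on the plus strand. NR1D1 had 7.62, 6.84, 8.06 and 5.80 CPM in degrader 1 to 4, against 12.4, 13.6, 13.9 and 9.86 CPM in DMSO 1 to 4. Every degrader library was below every DMSO library, with or without degrader 2. For NR1D1 this was a log2 fold change of -0.80 ± 0.16, or 1.74-fold lower, and -0.85 ± 0.15 without degrader 2. NR1D2 had 5.86, 2.93, 3.58 and 5.10 CPM in degrader 1 to 4, against 6.45, 8.11, 6.74 and 7.89 CPM in DMSO 1 to 4. The groups again did not overlap, with degrader 2 the lowest of the 8. The log2 fold change of NR1D2 was -0.72 ± 0.20, and -0.65 ± 0.17 without degrader 2.

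The PER genes encode the inhibitors that enter the nucleus with CRY proteins. They lie at chr17:8140472-8156506 (PER1, minus strand), chr2:238244038-238290102 (PER2, minus strand) and chr1:7784320-7845177 (PER3, plus strand), in the coordinates of the files. PER1 had 21.6, 21.7, 19.2 and 16.6 CPM in degrader 1 to 4, against 37.0, 30.7, 27.8 and 31.5 CPM in DMSO 1 to 4. The groups did not overlap, and on the TMM scale degrader 2 lay beside its group mates. PER1 differed by -0.66 ± 0.15 on the log2 scale, and by -0.78 ± 0.12 without degrader 2. PER2 had 7.23, 13.03, 7.55 and 7.60 CPM in degrader 1 to 4, against 9.88, 11.1, 10.8 and 9.65 CPM in DMSO 1 to 4. Degrader 2 was the highest of the 8 libraries for PER2 on the TMM scale, and the other 3 degrader libraries were below all DMSO libraries. Scaled by total counts alone, degrader 2 was instead the lowest of the 8, at 6.35 CPM. The log2 fold change of PER2 was -0.22 ± 0.25 with all libraries and -0.53 ± 0.11 without degrader 2. PER3 was barely detected, with 0 to 17 counts per library across the 16 libraries. It was listed at 7 to 14 counts in degrader libraries and at 0 to 17 counts in DMSO libraries, where a count of 0 allows up to 0.177 CPM in DMSO 1. At this depth no difference of PER3 could be resolved, and the estimate was 0.37 ± 0.71 on the log2 scale.

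The cryptochromes CRY1 and CRY2 are the strongest inhibitors of the CLOCK and BMAL1 pair. CRY1 lies at chr12:106991364-107093829 on the minus strand and CRY2 at chr11:45847118-45883248 on the plus strand. CRY1 had 14.7, 4.56, 13.9 and 12.97 CPM in degrader 1 to 4, against 7.45, 7.05, 4.49 and 7.36 CPM in DMSO 1 to 4. The 3 degrader libraries other than degrader 2 were above all DMSO libraries, while degrader 2 lay at the level of the lowest DMSO library. CRY1 had a log2 fold change of 0.82 ± 0.29 with all libraries and 1.02 ± 0.15 without degrader 2, which is 2.02-fold higher. CRY2 had 11.8, 4.23, 11.1 and 9.94 CPM in degrader 1 to 4, against 9.17, 11.03, 7.80 and 10.3 CPM in DMSO 1 to 4. The groups overlapped with and without degrader 2, and the log2 fold changes were -0.03 ± 0.24 and 0.13 ± 0.13.

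CLOCK encodes the activator itself, and the sign of its fold change was not settled. The gene lies at chr4:55427903-55547138 on the minus strand. It had 14.5, 54.5, 16.1 and 17.8 CPM in degrader 1 to 4, against 22.5, 19.8, 23.7 and 19.7 CPM in DMSO 1 to 4. Degrader 2 was higher than any other library, and the other 3 degrader libraries were below all DMSO libraries. The log2 fold change was 0.32 ± 0.46 with all libraries and -0.46 ± 0.11 without degrader 2. With all libraries kept it was also below 0 under total count scaling, at -0.15, and with limma, at -0.08. Over the 10 genes the median log2 fold change was -0.34 with all libraries and -0.49 without degrader 2, against 0.05 and -0.04 over all genes tested.

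**Figure D2:**
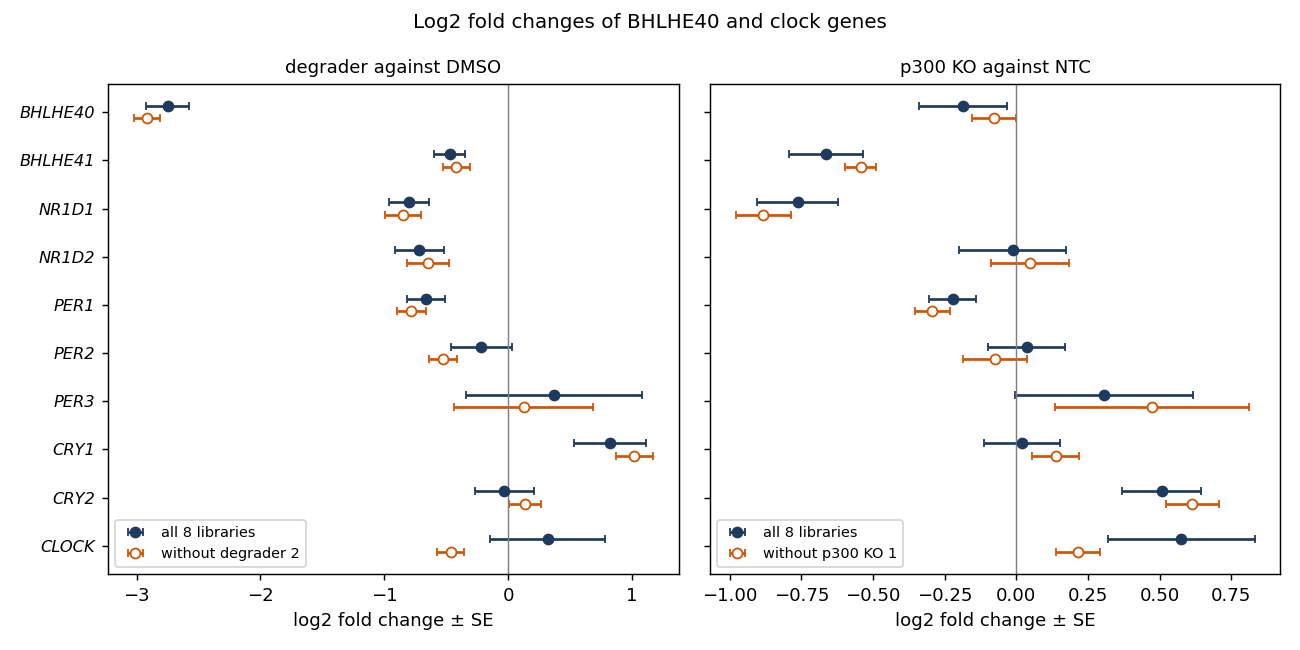
Log2 fold changes (x axis; points with standard errors) of the 10 genes (y axis) for degrader against DMSO on the left and p300 KO against NTC on the right. Filled points use all 8 libraries, and open points leave out degrader 2 or p300 KO 1. BHLHE40 stands at -2.75 with the degrader and at -0.18 in p300 KO, while NR1D1 stands at -0.80 and -0.76.

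In p300 KO cells BHLHE40 did not pass the test, whereas its relative BHLHE41 and the REV-ERB gene NR1D1 fell and CRY2 rose. These were the 3 of the 10 genes called, where 17.0% of the 17350 genes tested were called, 10.7% lower and 6.23% higher. The CRY2 call held in 5 of the 16 other settings, against 15 for BHLHE41 and 16 for NR1D1, and the CRY2 libraries overlapped. Without p300 KO 1, 5 of the 10 were called, with BHLHE41, NR1D1 and PER1 lower and CRY2 and CLOCK higher, where 40.9% of 17706 genes were called, 21.8% lower and 19.1% higher. With 10 genes, neither 3 against 17.0% nor 5 against 40.9% is read as a result about the set. The median log2 fold change of the 10 genes was 0.00, against 0.02 over all genes tested.

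BHLHE40 had 26.6, 50.9, 40.1 and 44.3 CPM in p300 KO 1 to 4, against 53.9, 50.5, 47.8 and 37.6 CPM in NTC 1 to 4. The groups overlapped, and the lowest value was that of p300 KO 1. The means were 40.5 ± 10.3 CPM in p300 KO and 47.4 ± 7.0 CPM in NTC (SD, n = 4 each). The log2 fold change was -0.18 ± 0.15 (95% interval -0.53 to 0.16; edgeR adjusted p = 0.42). Without p300 KO 1 it was -0.08 ± 0.08 (95% interval -0.23 to 0.07; edgeR adjusted p = 0.435). It passed in none of the other settings, with edgeR, DESeq2 or limma adjusted p-values of 0.216 to 0.68. The degrader estimate of -2.75 lies outside both intervals, but the difference between the 2 effects was not tested, because the degrader effect chose the gene.

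BHLHE41 had 33.9, 62.4, 57.5 and 62.4 CPM in p300 KO 1 to 4, against 85.6, 92.3, 90.1 and 84.7 CPM in NTC 1 to 4. All p300 KO libraries were below all NTC libraries, and p300 KO 1 was the lowest. The means were 54.0 ± 13.6 CPM in p300 KO and 88.2 ± 3.61 CPM in NTC (SD, n = 4 each). BHLHE41 fell by 0.66 ± 0.13 on the log2 scale, or 1.58-fold (edgeR adjusted p = 0.00862), and by 0.54 ± 0.05 without p300 KO 1 (edgeR adjusted p = 2.5e-11). The call was lost under total count scaling (edgeR adjusted p = 0.102) and held in the other 15 settings.

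NR1D1 had 9.67, 7.40, 8.18 and 9.15 CPM in p300 KO 1 to 4, against 13.8, 15.2, 17.7 and 13.7 CPM in NTC 1 to 4. The groups did not overlap, and here p300 KO 1 was the highest of its group on the TMM scale. Scaled by total counts alone it was the lowest of its group, at 7.61 CPM. The means were 8.60 ± 1.01 CPM in p300 KO and 15.1 ± 1.87 CPM in NTC (SD, n = 4 each). NR1D1 fell by 0.76 ± 0.14 on the log2 scale, or 1.70-fold (edgeR adjusted p = 0.00691), and by 0.88 ± 0.10 without p300 KO 1 (edgeR adjusted p = 2.7e-10). It was called in all 16 other settings, with adjusted p-values up to 0.0359. NR1D2 had 3.69, 5.04, 4.70 and 6.77 CPM in p300 KO 1 to 4, against 5.94, 4.16, 6.56 and 4.52 CPM in NTC 1 to 4. These overlapped, with a log2 fold change of -0.01 ± 0.19 (95% interval -0.43 to 0.41; edgeR adjusted p = 0.973).

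PER1 had 30.4, 31.7, 30.3 and 27.7 CPM in p300 KO 1 to 4, against 35.9, 36.4, 36.8 and 37.0 CPM in NTC 1 to 4. All p300 KO libraries were below all NTC libraries, as they were for BHLHE41, NR1D1 and 18.0% of all genes tested. Its log2 fold change of -0.22 ± 0.08 did not pass (edgeR adjusted p = 0.0948), and without p300 KO 1 it was -0.29 ± 0.06 and passed (edgeR adjusted p = 1.47e-04). PER2 lay between 6.24 and 7.29 CPM in p300 KO and between 5.87 and 7.58 CPM in NTC, with a log2 fold change of 0.04 ± 0.13 (95% interval -0.27 to 0.34; edgeR adjusted p = 0.875). PER3 had 3 to 17 counts in p300 KO and 11 to 15 in NTC, and its log2 fold change was 0.31 ± 0.31 (edgeR adjusted p = 0.511). No difference of PER2 or PER3 could be resolved.

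CRY1 had 6.91, 13.1, 12.8 and 12.5 CPM in p300 KO 1 to 4, against 11.7, 11.7, 11.6 and 11.4 CPM in NTC 1 to 4. The low value was that of p300 KO 1, and the other 3 p300 KO libraries lay just above NTC. For CRY1 the estimate was 0.02 ± 0.13 on the log2 scale (95% interval -0.28 to 0.31; edgeR adjusted p = 0.935), and 0.14 ± 0.08 without p300 KO 1 (edgeR adjusted p = 0.184). CRY2 had 7.52, 15.1, 12.7 and 11.9 CPM in p300 KO 1 to 4, against 8.85, 8.65, 8.43 and 8.50 CPM in NTC 1 to 4. Again p300 KO 1 was below all NTC libraries and the other 3 were above them. CRY2 rose by 0.51 ± 0.14 on the log2 scale, or 1.42-fold (edgeR adjusted p = 0.0329), and by 0.61 ± 0.09 without p300 KO 1 (edgeR adjusted p = 4.7e-07). With p300 KO 1 kept, leaving out any other single library ended the CRY2 call, and it held in 5 of the 16 other settings, with adjusted p-values up to 0.468.

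CLOCK had 38.8, 18.1, 20.9 and 23.7 CPM in p300 KO 1 to 4, against 18.0, 17.7, 18.7 and 17.1 CPM in NTC 1 to 4. The highest value was that of p300 KO 1. Its log2 fold change was 0.58 ± 0.25 with all libraries and did not pass (edgeR adjusted p = 0.146). Without p300 KO 1 it was 0.21 ± 0.08 and passed (edgeR adjusted p = 0.023). In both mitochondria-rich libraries, degrader 2 and p300 KO 1, CLOCK and PER2 were the highest of their groups of 4 on the TMM scale. BHLHE41, NR1D2, CRY1 and CRY2 were the lowest. The TMM factors of these libraries were 0.488 and 0.786, and the PER2 rank depended on them. Scaled by total counts alone, PER2 was the lowest of its group in both, at 6.35 and 5.74 CPM, while CLOCK stayed the highest. The part of the mitochondrial share in these values was not tested.

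Between the 4 groups, the order of levels differed by gene. BHLHE40 averaged 7.04 CPM with the degrader, 5.75-fold below p300 KO, while the p300 KO, NTC and DMSO libraries overlapped each other. BHLHE41 was ordered otherwise, with 13.6 ± 2.59 CPM in degrader, 19.0 ± 2.05 CPM in DMSO, 54.0 ± 13.6 CPM in p300 KO and 88.2 ± 3.61 CPM in NTC, and no neighbours in that order overlapped. The BHLHE41 gap between the p300 KO and DMSO libraries, at 2.84-fold, was thus larger than either gap within an experiment. For NR1D1 the degrader and p300 KO libraries overlapped at the low end, and DMSO and NTC at the high end. PER1 was lowest in the degrader libraries, which did not overlap those of p300 KO, DMSO or NTC. CRY1 was lowest in DMSO, and without the mitochondria-rich libraries it was highest in the degrader group, whose libraries overlapped those of p300 KO. Without those libraries PER2 was highest in DMSO, apart from the other 3 groups. For NR1D2, PER3 and CRY2 all neighbouring groups overlapped with all libraries, and for CLOCK only DMSO and NTC did not. DMSO and NTC belong to separate experiments, so levels across experiments are descriptions.

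Per kilobase of exon, without the mitochondria-rich libraries, BHLHE40 had rank 6 of the 10 genes in degrader libraries and rank 1 in DMSO libraries. It had 1.70 ± 0.150 RPKM, which are CPM per kilobase of exon, with the degrader (SD, n = 3) and 12.4 ± 0.698 RPKM with DMSO (SD, n = 4). In the degrader group BHLHE41 led with 3.74 RPKM, above CRY1 with 2.74, PER1 with 2.73 and NR1D1 with 2.58 RPKM, the last 3 overlapping. In DMSO, BHLHE41 with 4.82, PER1 with 4.53 and NR1D1 with 4.49 RPKM followed BHLHE40 and overlapped each other. BHLHE41 led in both arms of the knockout experiment, with 15.4 RPKM in p300 KO and 22.3 RPKM in NTC, ahead of BHLHE40 with 11.8 and 12.4 RPKM in those groups. PER3 was last in all 4 groups, at 0.0601 to 0.0839 RPKM.

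**Figure D3:**
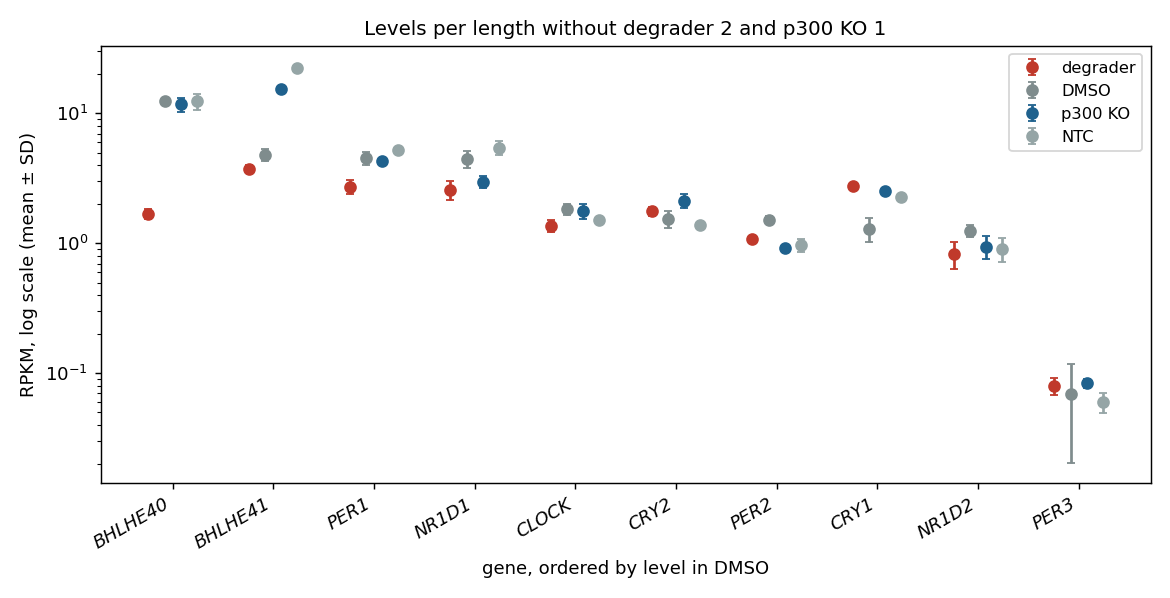
CPM per kilobase of exon (RPKM; y axis, log scale; points are means and bars SD) of the 10 genes (x axis, ordered by DMSO level) in the degrader, DMSO, p300 KO and NTC groups, without degrader 2 and p300 KO 1 (n = 3, 4, 3 and 4). BHLHE40 is at 1.70 RPKM in the degrader group and at 11.8 to 12.4 RPKM in the other groups, and BHLHE41 runs between 3.74 RPKM in the degrader group and 22.3 RPKM in NTC.

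With all libraries, a list of 21 other clock genes gave 2 calls with the degrader and 1 in p300 KO. That list too was set with earlier results of these data known. It held the positive arm (BMAL1, BMAL2, NPAS2), ROR activators, D-box factors, the repressor partners CIART and TIMELESS, kinases and ubiquitin enzymes, and outputs, and 18 of the 21 were tested in each comparison. With the degrader 2 of the 18 fell and none rose by edgeR, where 4.76% of all genes were called and 3.12% called lower. Of the 18, 8 were at an unadjusted edgeR p under 0.05. The share of all genes at that unadjusted level was not computed, so this count cannot be set against 4.76%. CIART, a repressor of CLOCK and BMAL1 also called CHRONO, had 0.493, 0.814, 0.352 and 0.532 CPM in degrader 1 to 4, against 2.13, 1.66, 1.18 and 1.87 CPM in DMSO 1 to 4. It was low throughout, at 5 to 36 counts per library over all groups, but the degrader and DMSO libraries did not overlap. CIART fell by 1.71 ± 0.35 on the log2 scale (edgeR adjusted p = 0.0277), and the call held in 9 of 16 other settings, with adjusted p-values up to 0.156. USP2, a deubiquitinase with clock-controlled expression, had 5.70, 5.86, 4.68 and 4.73 CPM in degrader 1 to 4, against 8.22, 8.71, 8.69 and 9.38 CPM in DMSO 1 to 4. Its groups did not overlap either, and it fell by 0.73 ± 0.16 on the log2 scale (edgeR adjusted p = 0.0347), with the call held in 6 of 16 other settings and adjusted p-values up to 0.207.

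Without degrader 2, 12 of the 18 other clock genes were called, 5 higher and 7 lower, where 38.5% of all genes were. The 5 that rose were BMAL1, BMAL2, TIMELESS and the ubiquitin ligase subunits BTRC and FBXW11. BMAL1, the partner of CLOCK, rose by 0.77 ± 0.16 on the log2 scale (edgeR adjusted p = 0.0019). With all libraries its log2 fold change was 0.66 ± 0.20, the groups overlapped and it was not called (edgeR adjusted p = 0.1). A link between BMAL1 and the levels of NR1D1 or NR1D2 was not tested. The 7 that fell were NFIL3, CIART, CSNK1E, USP2, NOCT, NAMPT and KLF10. NAMPT, an enzyme of NAD synthesis with clock-driven expression, fell by 0.42 ± 0.09 (edgeR adjusted p = 0.00262). The median log2 fold change of the 18 genes was -0.04 with all libraries, against 0.05 over all genes tested, and -0.13 without degrader 2, against -0.04 over all genes.

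In p300 KO, 1 of the 18 other clock genes was called by edgeR, where 17.0% of all genes were. Of the 18, 3 were at an unadjusted edgeR p under 0.05, and the share of all genes at that unadjusted level was not computed. KLF10, a zinc finger factor with circadian expression in mouse liver, had 36.2, 59.2, 53.9 and 59.1 CPM in p300 KO 1 to 4, against 85.8, 83.0, 81.1 and 77.2 CPM in NTC 1 to 4. The groups did not overlap, with p300 KO 1 the lowest. KLF10 fell by 0.61 ± 0.10 on the log2 scale (edgeR adjusted p = 0.00491), and the call was lost only under total count scaling (edgeR adjusted p = 0.0942). Without p300 KO 1, 8 of the 18 were called, 3 higher and 5 lower, where 40.9% of all genes were called, 19.1% higher and 21.8% lower. BMAL1 rose by 0.42 ± 0.09 (edgeR adjusted p = 1.76e-04), and TIMELESS and BTRC rose too. RORB, NFIL3, USP2, NAMPT and KLF10 fell, with RORB at -0.85 ± 0.20 (edgeR adjusted p = 6.26e-04) and USP2 at -0.32 ± 0.08 (edgeR adjusted p = 6.86e-04). With all libraries the groups overlapped for BMAL1, RORB and USP2, and none of them passed. Their log2 fold changes were then 0.28 ± 0.17, -0.42 ± 0.33 and -0.19 ± 0.13 (edgeR adjusted p = 0.278, 0.395 and 0.307). The median log2 fold change of the 18 was -0.16 with all libraries, against 0.02 over all genes tested, and -0.12 without p300 KO 1, against 0.00 over all genes.

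**Figure D4:**
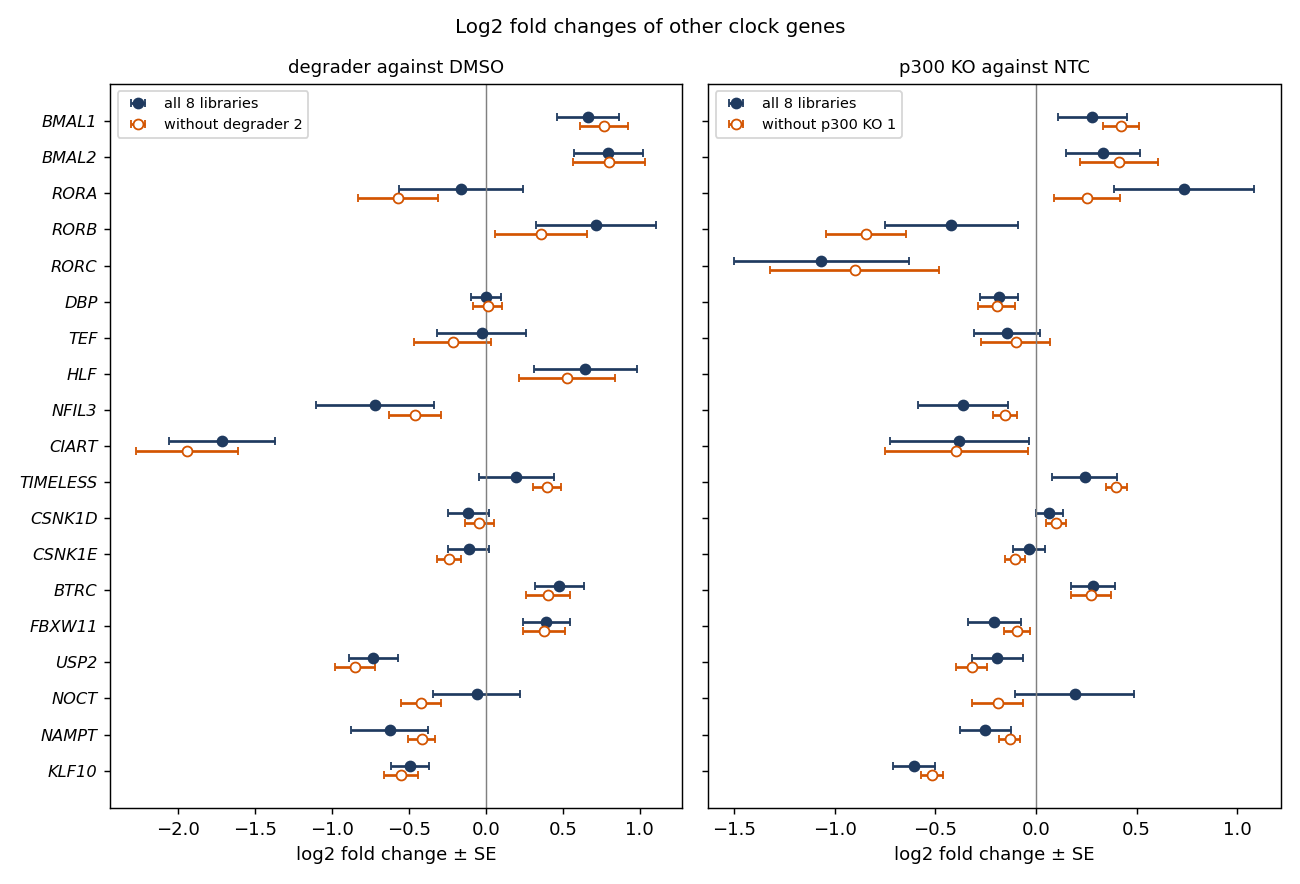
Log2 fold changes (x axis; points with standard errors) of the other clock genes that could be tested (y axis) for degrader against DMSO on the left and p300 KO against NTC on the right. Filled points use all 8 libraries, and open points leave out degrader 2 or p300 KO 1. CIART is the lowest with the degrader, at -1.71 with all libraries, and KLF10 stands at -0.61 in p300 KO.

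The genes whose pattern was most like that of BHLHE40 over 14 libraries were FOSL2, RGS3, KIF21B, SEMA4D, GSE1 and EVC, among 9149 genes with a mean log2 CPM of at least 3. Their Pearson correlations of log2 CPM with BHLHE40 were 0.987 for FOSL2, an AP-1 subunit, 0.980 for RGS3, a regulator of G protein signalling, 0.979 for the kinesin KIF21B, 0.978 for the semaphorin SEMA4D, 0.976 for GSE1 and 0.975 for EVC. FOSL2 averaged 6.08 CPM with the degrader and 31.7 CPM with DMSO, and 30.4 CPM in p300 KO and 29.02 CPM in NTC, so its mean too was lowest in the degrader group. Most opposite were FES with -0.985, KRT10 with -0.973 and BRD2 with -0.969. These values are a description, since libraries of a group share their treatment and the 3 degrader libraries stand apart. Over all 16 libraries FOSL2 remained first with 0.983, while GSE1 and EVC were at 0.889 and 0.831, and FES was at -0.621. Of the 6 clock genes of the set at that level, over the 14 libraries, PER1 was the most like BHLHE40 with 0.898, at rank 106, followed by NR1D1 with 0.675, CLOCK with 0.616 and BHLHE41 with 0.598. CRY2 was at -0.189 and CRY1 at -0.462. Over all 16 libraries PER1 was again the most like BHLHE40 of these, with 0.904 at rank 44, NR1D1 was at 0.714 and BHLHE41 at 0.657. CLOCK was then at -0.074, CRY2 at 0.180 and CRY1 at -0.150, so CLOCK and CRY2 changed sign with degrader 2 and p300 KO 1 included.

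Some members share bases with a gene on the other strand, and the sources used here do not say whether counting used strand. Reads from a gene and its antisense partner cannot then be told apart. NR1D1 shares 263 exon bases, 9.49% of its exon length, with THRA, a thyroid hormone receptor gene. THRA did not pass in either comparison, with a log2 fold change of -0.11 ± 0.12 in p300 KO (edgeR adjusted p = 0.543) and -0.01 ± 0.13 with the degrader (edgeR adjusted p = 0.99). BHLHE41 shares 162 bases with SSPN, which had 0 to 45 counts per library, and BHLHE40 shares 4 bases with BHLHE40-AS1, which had 0 to 17 counts. CLOCK shares 76 bases with TMEM165, and PER3 shares 868 bases, 10.7% of its length, with UTS2, which had 0 counts in every library. Within 100 kb of BHLHE40 there were 4 other genes, none of them tested in the degrader comparison. Of these, BHLHE40-AS1 was tested in p300 KO and did not pass (edgeR adjusted p = 0.455).

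Marker genes of other cell types also differed between groups. The 4 T cell markers summed to 11.7 to 28.1 CPM in degrader and 39.6 to 44.3 CPM in DMSO libraries, with CD3D at 0 in both groups, and to 27.2 to 34.7 CPM in p300 KO and 41.4 to 45.9 CPM in NTC. Over the 16 libraries CD3E was at 9.77 to 43.1 CPM and TRAC at 0.651 to 21.0 CPM. CD2 and CD3D stayed at or under 0.307 CPM, so these sums do not show the T cell list as a whole. The 4 earlier B cell markers summed to 5.97 to 19.4 CPM in degrader and 4.91 to 6.38 CPM in DMSO libraries, where the highest degrader sum was 8.45 CPM without degrader 2, and to 4.05 to 5.84 CPM in p300 KO and 8.31 to 9.70 CPM in NTC. The 3 NK cell markers summed to 1.76 to 2.74 CPM in degrader and 3.89 to 4.37 CPM in DMSO libraries. In the knockout experiment they summed to 18.4 to 31.5 CPM in p300 KO and 29.4 to 32.5 CPM in NTC, and the highest p300 KO sum was 20.9 CPM without p300 KO 1. The 3 monocyte markers summed to 0.554 to 0.877 CPM in degrader and 1.12 to 1.54 CPM in DMSO libraries, and to 4.07 to 4.25 CPM in p300 KO and 6.18 to 9.79 CPM in NTC. Erythroid and fibroblast lists stayed at or under 1.60 CPM in every library. Epithelial markers summed to 9.26 to 11.7 CPM in degrader and 8.46 to 13.1 CPM in DMSO libraries, which overlapped, and to 13.7 to 14.4 CPM in p300 KO and 12.3 to 13.5 CPM in NTC. Of these, KRT18 alone was at 7.60 to 12.6 CPM over the 16 libraries. Plasma cell markers summed to 1904 to 4666 CPM in degrader and 3543 to 4037 CPM in DMSO libraries, and to 2028 to 3314 CPM in p300 KO and 3473 to 3618 CPM in NTC. Without degrader 2 and p300 KO 1 the lowest plasma cell sums were 4377 CPM in degrader and 3276 CPM in p300 KO. The part of these differences in the values of the clock genes was not tested.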

How the data were processed

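RNA was measured as whole-number counts per gene in 16 libraries, deposited by the authors as 1 table per library. Per the submitters' processing notes, the build was GRCh38 and the software included featureCounts from Subread 1.5.2, the aligner STAR 2.5.2b, the trimmer Trimmomatic 0.36 and DESeq2 1.16.1. NEBNext Ultra II RNA reagents were used for library preparation, per the labels' protocols. Neither strand use in counting nor the annotation release is stated in the sources used here. Symbols came from a separate list of gene names, which named 40907 of the 57500 identifiers. GENCODE 29, used for gene types and a check of positions, held 56898 of the identifiers, and 54784 had the same position there. From the deposited counts, CPM and RPKM were computed with TMM over the 16 libraries.

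Each comparison was fitted on its own 8 libraries with edgeR 4.0.16 in R 4.3.3 (TMM, default filter on low counts, quasi-likelihood test, Benjamini-Hochberg adjustment over all genes tested), with group as the only term. The step was tested on simulated counts that had the same gene composition in every library and the same spread setting for all genes. That test does not cover mitochondria-rich libraries such as degrader 2 and p300 KO 1. The 95% intervals use edgeR's degrees of freedom, and SE is the log2 fold change divided by the root of F. The 10 genes and the lists of other clock genes and markers were chosen with earlier results of these data known, and 1 gene of the clock list is not reported here. Named were all 10 genes, EP300, other clock genes called with the smallest p, genes most and least correlated with BHLHE40 (log2 CPM with a prior count of 2) and genes that overlap a member. Alternatives were RLE size factors, total counts, no filter, DESeq2 1.42.0, limma 3.58.1, a fit of all 16 libraries, mitochondrial genes removed, a replicate block and each library left out. A count of 0 was taken to allow 3 counts, which is 0.115 to 0.488 CPM on the TMM scale; floors and depth cover counting error only. No libraries of a group were identical, and pairs without degrader 2 or p300 KO 1 differed by 2.74 to 56.5 times sampling noise (chi-square per degree of freedom), so each was counted as 1 sample.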

Additional observations from a re-analysis of the deposited data

Results flagged for a closer look

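Over the 10 genes, 40 sets of 4 libraries were examined for a library far from the other 3 of its group, by Dixon's ratio of gap to range at its 95% critical value. Chance gives about 1 in 20 such sets, and 4 were found. Degrader 2 stood apart for PER2, with 13.03 CPM against 7.23 to 7.60 CPM in its group mates, and for CLOCK, with 54.5 CPM against 14.5 to 17.8 CPM. These are TMM-scaled values. Scaled by total counts alone, degrader 2 was the lowest of its group for PER2, at 6.35 CPM. p300 KO 1 stood apart for CRY1, with 6.91 CPM against 12.5 to 13.1 CPM. DMSO 3, whose mitochondrial share was 23.5%, stood apart for CRY1, with 4.49 CPM against 7.05 to 7.45 CPM. BHLHE40 had no such library in any group.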

How the results depend on the processing

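BHLHE40, which was chosen by this comparison, stayed lower with the degrader in all 16 other settings. NR1D1 stayed called lower in p300 KO in all 16. Counts of calls moved more. With the degrader, 755 genes were called, against 164 with total count scaling, 394 with no filter, 1796 with DESeq2, 2294 with 16 libraries in 1 fit and 24 with the replicate block, and 197 to 6278 when 1 library was left out. The 10 genes met the call rule 1, 1, 5, 5 and 1 times in those settings, and 1 to 8 times when 1 library was left out. Other clock genes were called 1, 1, 5, 5 and 0 times, and 0 to 12 times. In p300 KO, 2944 genes were called, against 1265 with total count scaling, 1484 with 16 libraries in 1 fit and 1304 with the replicate block, and 1542 to 7246 when 1 library was left out. The 10 genes were called 1 time with total count scaling and 2 to 5 times when 1 library was left out, and other clock genes 0 times and 1 to 8 times. The highest counts came without degrader 2 and without p300 KO 1. Total count scaling moved the median log2 fold change of all genes by -0.14 with the degrader and -0.16 in p300 KO, and the share of calls that were higher to 11.6% and 4.82%, against 34.4% and 36.7%; it was 44.2% and 44.1% with DESeq2, 18.8% in p300 KO with 16 libraries, and 16.7% and 26.3% with the block. Otherwise the cause of these moves was not tested.

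With the degrader, 3 log2 fold changes changed sign. CLOCK, at 0.32, was at -0.1487 with total count scaling, -0.0792 with limma and -0.4631 without degrader 2. CRY2, at -0.03, was at 0.027 with no filter, 0.0071 with limma, and 0.0036 to 0.1349 without degrader 2, DMSO 2 or DMSO 4. PER3, at 0.37, was at -0.0025 without DMSO 1. In p300 KO, 3 log2 fold changes near 0 changed sign. NR1D2 was at 0.0066 with limma and ranged between -0.1661 and 0.0976 when 1 library was left out, with 0.0105 to 0.0976 without p300 KO 1, 2 or 3 or NTC 1 or 3. PER2 was at -0.16 with total count scaling, -0.0064 with no filter, -0.0173 with 16 libraries in 1 fit, and ranged between -0.0751 and 0.1069 when 1 library was left out, below 0 without p300 KO 1 or NTC 2. CRY1 was at -0.11 with total count scaling, -0.0063 with no filter, -0.0289 with 16 libraries in 1 fit, -0.0052 with the replicate block, and ranged between -0.0382 and 0.1374 when 1 library was left out, below 0 without p300 KO 2, 3 or 4.

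Deviations of same-numbered libraries had correlations of -0.433 to 0.126 with the degrader and -0.177 to 0.019 in p300 KO. With so few libraries per group, and the mitochondria-rich libraries among them, these correlations cannot decide whether the numbers pair the samples. With the block the CRY2 call in p300 KO was lost, and 2 of the 10 genes were called. Levels in the mitochondria-rich libraries also depended on the scaling, as given above for PER2 and NR1D1. Depth limits PER3, which had at most 17 counts.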
